A study of Mus musculus with 5 samples.

Results

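The E2f genes and the cyclin gene Ccnd2 were examined for sites recovered with a c-Maf antibody. The protein c-Maf is a transcription factor of the basic leucine zipper class. The set holds 9 of the 21887 protein-coding genes on assembled chromosomes in the RefSeq annotation, the 8 E2f genes and Ccnd2. The set was chosen by the peak calls of these same libraries, because peaks of both c-Maf antibody libraries had been seen inside E2f7. That site is therefore given as a description with no test. For each gene, every peak inside its RefSeq span or within 50 kb of it was taken from the 4 deposited peak lists, which gave 48 of 115354 peaks. Chromatin immunoprecipitation with sequencing had been done on mouse bone marrow macrophages of C57Bl/6 background, with no genetic or drug treatment in the labels used here. The source labels call the cells M2, polarized in culture, but the sample titles carry M0. There were 2 c-Maf antibody libraries and 2 isotype libraries made with normal rabbit IgG, each pair carrying the numbers 3 and 4, and 1 input library, used by the authors as the control for all 4 lists. Peak lists hold no expression values, so the cell type could not be checked against marker genes.

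E2F proteins are transcription factors that time entry into S phase, the part of the cell cycle in which DNA is copied. E2f1, E2f2 and E2f3 encode activators that the retinoblastoma pocket proteins hold inactive until cyclin-dependent kinases phosphorylate them. E2f4 and E2f5 encode repressors that work with pocket proteins, E2f6 encodes a repressor that works with Polycomb proteins instead, and E2f7 and E2f8 encode atypical repressors that bind DNA without a DP partner and are themselves E2F targets. Ccnd2 encodes cyclin D2, which activates the kinases that phosphorylate pocket proteins, and its human counterpart is a known MAF target in multiple myeloma. In macrophages, c-Maf is known as an activator of the gene for the cytokine interleukin-10.

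Depth was close to equal, with 21655683 to 22017759 tags after duplicate filtering in the antibody libraries. The lists held 23434 and 17620 peaks for c-Maf antibody libraries 3 and 4, against 58732 and 15568 peaks for isotype libraries 3 and 4. Most peaks were small. The summit pileup, the authors' scaled count of extended tags at the highest point of a peak, corresponded to a median of 6 tags in both c-Maf antibody lists, against 4 and 5 tags in isotype lists 3 and 4. Near the 9 genes the highest peak held 11 tags. Peaks sharing 1 bp or more, from whichever list, were joined into regions. A region with peaks from both c-Maf antibody lists and from neither isotype list was called c-Maf-only, and isotype-only with the antibodies exchanged.

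E2f7 (RefSeq gene 52679, mm10 chr10:110745439-110787384, plus strand) held the strongest site near the 9 genes. The c-Maf antibody library 3 peak lay at chr10:110781955-110782084, with 11 tags at its summit (95% exact Poisson interval 5.49 to 19.7) over a local input level of 1.00 scaled tags. The peak of c-Maf antibody library 4 lay at chr10:110781934-110782039, with 10 tags (4.80 to 18.4) over a local input level of 0.84. These intervals cover counting error only. The peaks shared 85 bp, their summits were 33 bp apart, and neither isotype list held a peak there.

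The authors' fold enrichment at the E2f7 site was 5.84 in c-Maf antibody library 3 and 5.91 in library 4. The −log10 p was 8.00 and 7.65 and the −log10 q was 2.35 and 1.95, so both peaks had a q-value under 0.05. In each c-Maf antibody list the peak stood near the top, within the strongest 1.04% and 1.11% of peaks by p-value. Among the 491 c-Maf-only regions of the series, the E2f7 site was number 24 by the weaker of its p-values. By summit pileup it was number 78 in c-Maf antibody library 3 and number 60 in library 4, with tied regions sharing the best place. The nearest isotype peaks were 17.3 kb away in library 3 and 138 kb away in library 4. A peak list gives no tag count where no peak was called, so the isotype level at the site itself was not measured here. The smallest listed peaks held 3 tags in isotype list 3 and 4 tags in isotype list 4. In isotype list 3, peaks of 3 tags near the 9 genes lay over local input levels of 0.42 to 0.44. At the E2f7 site the c-Maf antibody lists gave local input levels of 1.00 and 0.84. A call needs more tags where local input is higher, so these minima set no ceiling for the isotype level there.

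The site lay inside E2f7, far from its start. The centre of the joined region of 151 bp was 36.6 kb downstream of the RefSeq start site and 5.38 kb from the end of the gene, at 87.2% of its length. Exon and intron borders were not used here. No other protein-coding gene lay within 50 kb of the gene, so E2f7 was the only one in this window.

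Other peaks around E2f7 were weaker and were found in 1 list each. In c-Maf antibody library 3, peaks with 6 and 4 tags lay inside the gene, 19.4 kb and 35.6 kb downstream of the start. In library 4 of the same antibody, a peak with 7 tags lay 18.9 kb upstream of the start and another with 6 tags lay 8.95 kb beyond the end. Isotype library 3 had 2 peaks, with 5 and 4 tags, 12.0 kb and 18.7 kb beyond the end, and isotype library 4 had none in the window. Inside the gene, c-Maf antibody lists thus held 4 peaks and isotype lists 0.

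No peak of any list overlapped the promoter of E2f7. The same held for all 8 promoters that the RefSeq sequence table gives for 6 of the 9 genes, each running from 250 bases before to 50 bases after a start site (GRCm38.p6, the mm10 assembly). The share of all promoters that a peak overlapped is not given here, so nothing is read from this absence. Promoters are shown for E2f7 and E2f6, the genes with a c-Maf-only region in their windows, and for E2f2, whose window held no peak of any list. Capitals mark matches on either strand to the E2F octamers TTTCCCGC, TTTGGCGC, TTTCGCGC and TTTGCCGC, or to TGCTGA, an arm of the Maf recognition element.
E2f7 chr10:110745189-110745488 plus strand: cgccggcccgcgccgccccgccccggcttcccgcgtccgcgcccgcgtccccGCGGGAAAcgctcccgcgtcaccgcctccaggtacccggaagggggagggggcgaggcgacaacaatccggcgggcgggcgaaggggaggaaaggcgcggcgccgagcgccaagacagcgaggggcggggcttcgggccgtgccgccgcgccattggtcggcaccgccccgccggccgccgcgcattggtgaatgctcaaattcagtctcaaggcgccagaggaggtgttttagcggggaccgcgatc
E2f6 chr12:16810715-16811014 plus strand: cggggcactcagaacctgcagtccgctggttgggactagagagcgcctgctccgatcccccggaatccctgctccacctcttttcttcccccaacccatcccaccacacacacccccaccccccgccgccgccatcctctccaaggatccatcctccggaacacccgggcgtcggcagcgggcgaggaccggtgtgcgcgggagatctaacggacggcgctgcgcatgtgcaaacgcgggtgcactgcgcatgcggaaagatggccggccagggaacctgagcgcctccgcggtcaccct
E2f2 chr4:136172024-136172323 plus strand: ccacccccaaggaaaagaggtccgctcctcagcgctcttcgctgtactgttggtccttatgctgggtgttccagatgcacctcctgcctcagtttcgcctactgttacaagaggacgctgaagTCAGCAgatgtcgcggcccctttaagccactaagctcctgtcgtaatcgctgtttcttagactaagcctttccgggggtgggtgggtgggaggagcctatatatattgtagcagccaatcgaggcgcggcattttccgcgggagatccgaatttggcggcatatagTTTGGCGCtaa

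The E2f7 promoter held 1 E2F octamer, read as GCGGGAAA on the strand shown, and no TGCTGA. The E2f6 promoter shown held neither. The E2f2 promoter shown held 1 of each, and the first E2f3 promoter held 1 E2F octamer. Among all 32851 promoters of this length on assembled chromosomes, 2.26% held an E2F octamer and 19.5% held TGCTGA. A match is a description of letters and not a bound site. The sequence under the E2f7 peaks was not analysed here.

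**Figure D1:**
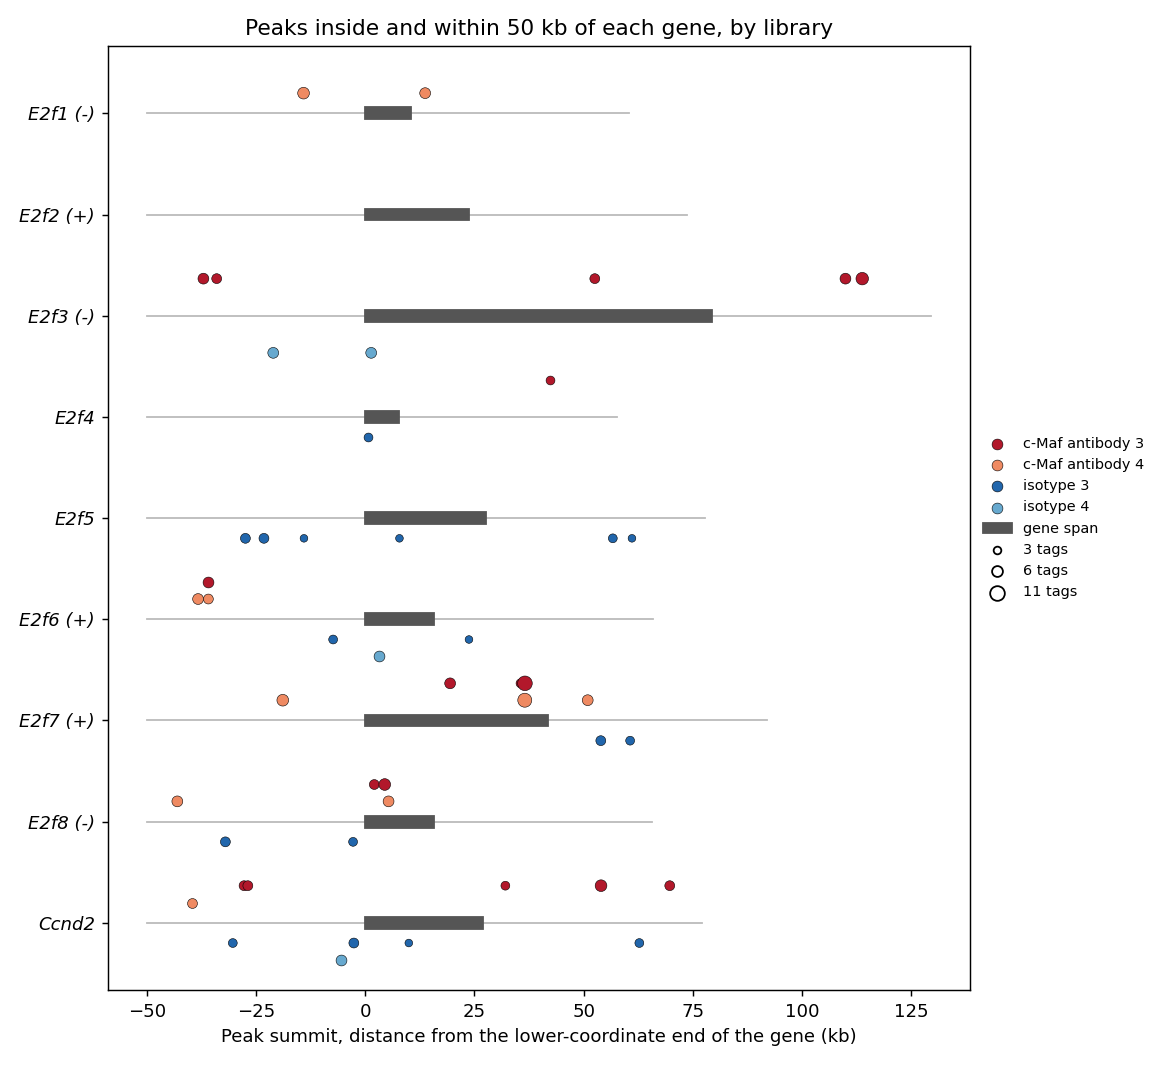
Position of every peak near the 9 genes, by library, as the distance of the summit in kb from the lower-coordinate end of the gene. Dark bars are gene spans, grey lines the windows of 50 kb on each side, dots above a line c-Maf antibody peaks and dots below it isotype peaks, with dot area proportional to tags and strand in brackets where the table gives it; peaks of both c-Maf antibody libraries overlap only at E2f7 and E2f6, with 11 and 10 tags at E2f7 and 6 and 5 tags at E2f6.

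E2f8, the other atypical repressor (chr7:48866429-48882073, minus strand), also held peaks of both c-Maf antibody libraries inside the gene, but at different places. In c-Maf antibody library 3, peaks with 7 and 5 tags lay 10.7 kb and 13.1 kb downstream of the start. In library 4, a peak with 6 tags lay 9.83 kb downstream of the start. The closest of these peaks were separated by 770 bp, so no region was shared. The peak with 7 tags had a fold enrichment of 4.95 and a −log10 p of 5.61, while the library 4 peak had a fold enrichment of 3.46 and a −log10 p of 3.23. Isotype library 3 had 2 peaks outside the gene, with 5 and 4 tags, and isotype library 4 had none in the window.

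E2f7 and E2f8 were the 2 members with peaks of both c-Maf antibody lists and of neither isotype list inside the gene span. Among all protein-coding genes 1.17% had that pattern, and the reverse pattern, both isotype lists and neither c-Maf antibody list, was found in 2.34%. Because E2f7 was chosen for its peaks, nothing is read from the members' share. Counted by list, 3 members had a peak inside the gene in c-Maf antibody library 3, against 23.1% of all genes, and 2 in library 4, against 17.6%. In isotype library 3 the count was 3, against 33.7%, and in isotype library 4 it was 2, against 15.3%.

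The activator genes had c-Maf antibody peaks of 1 library each, or none. E2f1 (chr2:154559400-154569892, minus strand) had 2 peaks of c-Maf antibody library 4 and none of library 3 or of either isotype library. One, with 6 tags and a fold enrichment of 3.46, lay 3.70 kb upstream of the start, the c-Maf antibody peak nearest to an annotated start among the 6 members with one. The other, with 7 tags and a fold enrichment of 4.94, lay 14.1 kb from the gene, inside Necab3. The nearest peak of c-Maf antibody library 3 was 347 kb from E2f1.

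E2f2 (chr4:136172274-136196057, plus strand) had no peak of any list in its window. Its nearest peaks were 94.8 kb and 109 kb away in c-Maf antibody libraries 3 and 4, against 84.8 kb and 244 kb in isotype libraries 3 and 4. Of all protein-coding genes, 3.84% had no peak within this distance.

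E2f3 (chr13:29906575-29986064, minus strand), the longest member at 79.5 kb, had 5 peaks of c-Maf antibody library 3, none of library 4, none of isotype library 3 and 2 of isotype library 4. The strongest lay 34.3 kb upstream of the first start at chr13:30020367-30020432, with 8 tags, a fold enrichment of 5.83 and a −log10 q of 1.72. It was the only peak near the 9 genes, apart from the pair at the E2f7 site, with a q-value under 0.05, and c-Maf antibody library 4 had no peak closer to E2f3 than 63.5 kb. The other 4 peaks of c-Maf antibody library 3 held 5 or 6 tags, and 1 of them lay inside the gene, 26.9 kb downstream of the first start. Both isotype library 4 peaks held 6 tags, and 1 of them lay inside the gene near its end.

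Among the canonical repressor genes, E2f6 (chr12:16810909-16826752, plus strand) had the second c-Maf-only region. A peak of c-Maf antibody library 3 with 6 tags at chr12:16774959-16775021 and a peak of library 4 with 5 tags at chr12:16774942-16775001 had summits 1 bp apart. The region lay 35.9 kb upstream of E2f6, inside the neighbouring gene Greb1, which is known as an estrogen-induced gene. Its fold enrichments were 4.03 and 3.57 and its −log10 p values 4.07 and 3.22, and neither peak had a q-value under 0.05. By the weaker p-value it was number 363 of the 491 c-Maf-only regions. The nearest isotype peaks to it were 28.5 kb away in library 3 and 39.0 kb away in library 4. Inside E2f6 itself the only peak was one of isotype library 4, with 6 tags, 3.10 kb downstream of the start. That isotype peak was nearer to an annotated start than any c-Maf antibody peak near the members.

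E2f4 (chr8:105297663-105305370), in a window shared with 13 other protein-coding genes, had 1 peak of c-Maf antibody library 3, with 4 tags and inside Fhod1, and 1 peak of isotype library 3, with 4 tags and inside E2f4. E2f5 (chr3:14578602-14606309) had no c-Maf antibody peak in its window, with the nearest 197 kb and 294 kb away in libraries 3 and 4. It had 6 peaks of isotype library 3, with 3 to 5 tags, and none of isotype library 4. These peaks belong to the longest list, which was called at the same p-value cut-off of 0.01 as the others and holds peaks of 3 tags. The fragment length set for that list was 53 bases, the shortest of the 4 lists. The effect of that length on the calls was not tested.

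Ccnd2 (chr6:127125162-127152188) had no c-Maf antibody peak inside the gene. Its window held 5 peaks of c-Maf antibody library 3 and 1 of library 4, against 4 of isotype library 3 and 1 of isotype library 4. The c-Maf antibody peaks held 4 to 7 tags and lay 5.02 kb to 42.7 kb from the gene, and 3 of them were inside Tigar, a neighbouring gene for a regulator of glycolysis. The closest pair from the 2 c-Maf antibody lists was 11.8 kb apart, so no region was shared. The highest, with 7 tags in c-Maf antibody library 3, had a fold enrichment of 3.90 and a −log10 p of 4.08, below both E2f7 peaks. Of the isotype peaks, 1 lay inside the gene with 3 tags, and the closest outside it lay 2.59 kb from the gene with 5 tags.

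Taken by role, activator windows held 7 c-Maf antibody and 2 isotype peaks, canonical repressor windows 4 and 10, atypical repressor windows 10 and 4, and the Ccnd2 window 6 and 5. These windows covered 414, 351, 258 and 127 kb in the same order. Of the 10 c-Maf antibody peaks in atypical repressor windows, 6 were those of E2f7, for which the set was picked, so nothing is read from this split. The c-Maf antibody peaks in the activator windows came from library 3 in 5 cases and from library 4 in 2. Of the 10 isotype peaks in canonical repressor windows, 9 came from isotype library 3.

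**Figure D2:**
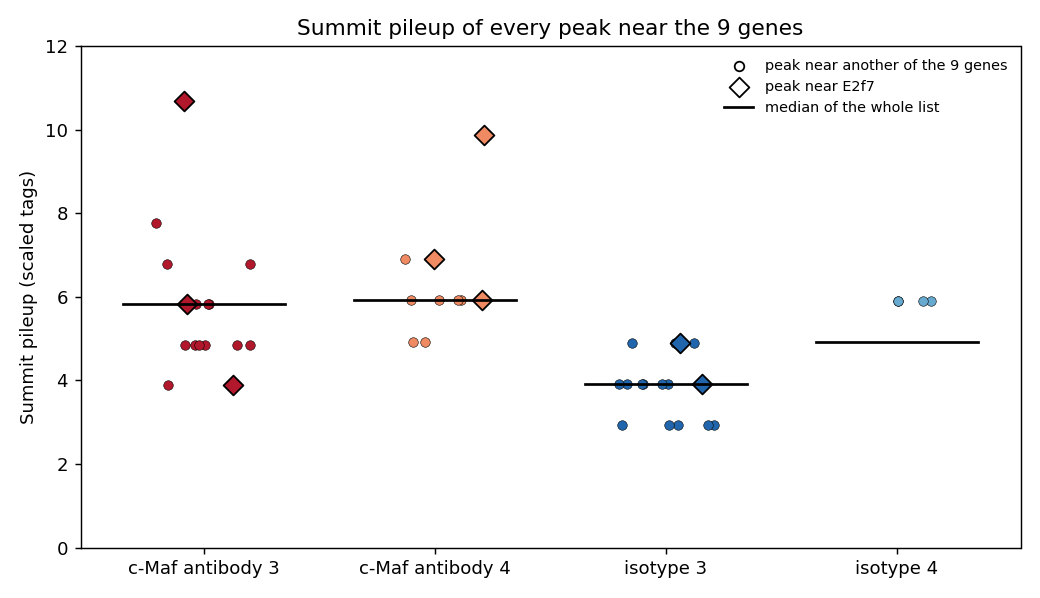
Summit pileup in scaled tags of each peak near the 9 genes, by library, with diamonds for peaks near E2f7 and a black line at the median of the whole list. The pair of diamonds at 10.68 and 9.87 stands above all other c-Maf antibody peaks, which reach 7.76, and above the isotype peaks, which reach 5.89.

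Presence of a peak in a window was common in these lists. A c-Maf antibody peak was found in or near 6 of 9 members in library 3, against 66.7% of all protein-coding genes, and 5 of 9 in library 4, against 53.8%. An isotype peak was found in or near 6 of 9 members in library 3, against 85.0% of all genes, and 3 of 9 in library 4, against 47.3%. Peaks of both c-Maf antibody lists stood in 4 member windows, against 39.3% of all genes, and peaks of both isotype lists in 2, against 42.5%. A window with peaks of both c-Maf antibody lists, as at Ccnd2, is therefore near the background.

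Peaks were also counted per Mb. Over the 1.15 Mb of member windows, c-Maf antibody library 3 had 14.8 peaks per Mb (95% exact Poisson interval 8.61 to 23.7) and library 4 had 8.70 (4.17 to 16.0), against 9.37 and 6.74 per Mb over the windows of all protein-coding genes. Isotype library 3 had 14.8 peaks per Mb (8.61 to 23.7) and isotype library 4 had 3.48 (0.948 to 8.91), against 22.1 and 5.86 per Mb over all windows. The intervals cover counting error only, and 6 of the 27 c-Maf antibody peaks near members are those of E2f7, for which the set was picked, so the densities are a description and not a test.

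A c-Maf-only region was much rarer than a peak. It was found in or near 2 of 9 members, E2f7 and E2f6, against 3.17% of all protein-coding genes, and inside the gene span at E2f7 alone, against 0.946%. An isotype-only region was found in or near 0 of 9 members, against 1.45% of all genes, and inside the span of 0, against 0.480%. Since E2f7 was picked for its site, these counts describe the set and are not a test. With 2 libraries a group, no exact permutation test over libraries can give a two-sided p under 0.333, and none was made.

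Near the limit of 50 kb, the farthest peaks inside it lay 43.0 kb from E2f8, with 6 tags in c-Maf antibody library 4, and 42.7 kb from Ccnd2, with 5 tags in c-Maf antibody library 3. The nearest peaks outside it lay 53.1 kb from Ccnd2, 53.9 kb from E2f4 and 54.5 kb from E2f6, each a c-Maf antibody peak with 5 tags.

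The other genes of the E2F pathway were read from a list of 48, covering DP partners, pocket proteins, other cyclins, kinases, kinase inhibitors, the MuvB complex with its Myb partners, replication genes and ubiquitin ligase subunits. A peak was found in or near 66.7% of them in c-Maf antibody library 3, 58.3% in library 4, 79.2% in isotype library 3 and 39.6% in isotype library 4. A c-Maf-only region was found in or near 2 of 48, or 4.17%, and an isotype-only region in or near 0. Over all protein-coding genes the peak shares were 66.7%, 53.8%, 85.0% and 47.3% in the same order, and the region shares 3.17% and 1.45%.

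The 2 pathway genes with a c-Maf-only region were Ccne1, for cyclin E1, which drives the start of S phase, and Fzr1, for the activator CDH1 of the anaphase-promoting complex. At Ccne1 the region lay 44.0 kb from the gene, outside any gene, with 5 tags in each c-Maf antibody library and fold enrichments of 3.77 and 3.88. At Fzr1 it lay 23.7 kb from the gene, inside Nfic, with 15 tags in c-Maf antibody library 3 and 8 tags in library 4. The fold enrichments there were 5.19 and 2.96, and only the peak of c-Maf antibody library 3 had a q-value under 0.05. Neither region lay inside the listed gene.

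No c-Maf-only region was found near the pocket protein genes Rb1, Rbl1 and Rbl2, the 7 kinase inhibitor genes, the 4 kinase genes or the 17 replication genes. At the 3.17% of all genes few such regions would fall near lists of this size, so nothing is read from their absence. Peaks of both c-Maf antibody lists stood in the windows of 20 of 48 pathway genes, or 41.7%, against 39.3% of all genes, and shared a c-Maf-only region at Ccne1 and Fzr1. Peaks of both isotype lists stood in the windows of 18, or 37.5%, against 42.5% of all genes. Both shares are near the background. Lin54, for a DNA-binding subunit of the MuvB complex, was the one pathway gene with peaks of both c-Maf antibody lists and of neither isotype list inside its span, with 6 and 4 tags, against 1.17% of all protein-coding genes. The reverse pattern, both isotype lists and neither c-Maf antibody list, was found in 4 pathway genes, Tfdp2, Rbl1, Cdk6 and Mcm2, against 2.34% of all genes. Lin9, for another subunit of that complex, was the one with no peak of any list in its window.

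**Figure D3:**
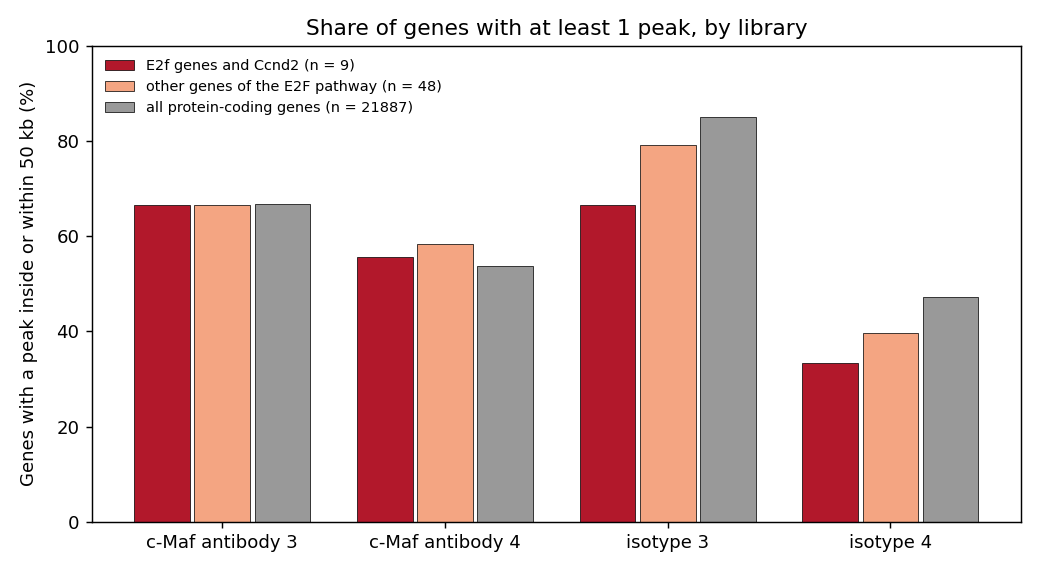
Percentage of genes with at least 1 peak inside the gene or within 50 kb, by library, for the 9 E2f genes and Ccnd2, the 48 other genes of the E2F pathway and all 21887 protein-coding genes. In c-Maf antibody library 3 the bars for members, pathway and all genes stand at 66.7% each, and in isotype library 3 the member bar is below the 85.0% of all genes.

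To place the E2f7 site, the c-Maf-only regions inside other genes were compared with it by summit pileup in both c-Maf antibody libraries. Of 198 such regions, the nearest in log2 pileup lay inside Gm5373, then inside the agouti gene a, and then, at equal distance, inside Idh1, Itgb5, Slc66a1 and Kcnk6. Of these the first had 11 and 9 tags in c-Maf antibody libraries 3 and 4, the region in a had 10 and 11, and the last 4 each had 12 and 9. Their fold enrichments differed because the local input differed. At Gm5373 the local input level in the library 3 list was 3.00 scaled tags and the fold enrichment was 2.92, while at Idh1, for cytosolic isocitrate dehydrogenase, these values were 1.00 and 6.32. The likeness is in pileup over 2 libraries only.

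**Figure D4:**
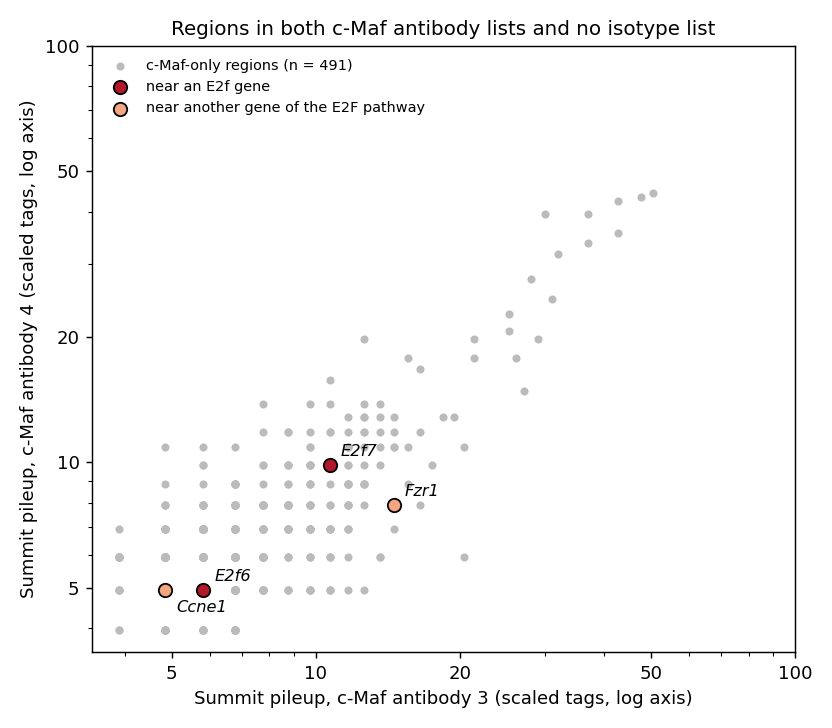
Summit pileup in scaled tags of the 491 c-Maf-only regions in c-Maf antibody library 3 (horizontal, log axis) and library 4 (vertical, log axis), with regions near the 9 genes in red and those near other E2F pathway genes in orange. The E2f7 region lies at 10.68 and 9.87, above the medians of 6.79 and 5.92 but below the 90th percentiles of 12.62 and 10.86. The E2f6 and Ccne1 regions lie below both medians.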

How the data were processed

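The deposited files are 4 peak lists, one per antibody library, called by the authors with MACS 2.1.1.20160309 against the number 4 input at a p-value cut-off of 0.01, per the file headers, and the build is mm10, per the submitters' processing notes. No aligner is named in these sources. The headers also record a limit of 1 tag per position and the human genome size preset, used on these mouse data. The preset sets the genome-wide background, which enters a p-value only where the local input is not higher. The effect of this preset on the scores was not tested. The summit pileup signal, the fold enrichment, a ratio of pileup to local input, and the −log10 p and q values are the authors' own, per the file headers, and describe peaks within one list. Whole tags were recovered by dividing the pileup by the scaling in the headers (100% of peaks within 0.05 of a whole number). The local input level was solved from the fold enrichment, taking 1 as added to both of its parts. Poisson p-values recomputed that way matched the deposited −log10 p within 0.02 for at least 99.99% of each list. The headers give depths of 21655683 to 22017759 tags. Fragment lengths, to which tags were extended, were 63 and 60 bases for c-Maf antibody libraries 3 and 4. For isotype libraries 3 and 4 these lengths were 53 and 56 bases, against a tag size of 50 bases in all lists.

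Peaks were joined into regions with Python 3.11.15, with code tested on simulated intervals. Members and gene lists were chosen with earlier results of these data known. Named are all members, pathway genes with a region, genes within 50 kb of a member's region, and the 5 genes most like E2f7 in pileup, with ties. Chromosome 18 was left out of that likeness. Lin54, Lin9, Tfdp2, Rbl1, Cdk6, Mcm2 and genes that hold a peak were named after their values were seen. Exon borders and the sequence under the peaks were not used here. No test between groups was made. Whether libraries of one number share a culture or animal is not stated, so the spread between libraries may be technical.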

Additional observations from a re-analysis of the deposited data

How the results depend on the processing

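The E2f7 region was chosen for its peaks in both c-Maf antibody lists, so leaving out a library, pairing libraries by number or changing the window could not remove it. Its peaks had q-values under 0.05, stood within the strongest 1.11% of their lists, shared 85 bp and had summits 33 bp apart. With those values the region also stayed at the stricter p- and q-values, in lists of equal length and under both other overlap rules. None of these settings gives separate support for the site. The E2f6 region was lost at the stricter p- and q-values and in the smaller window. The counts as reported were 2 members with a c-Maf-only region and 0 with an isotype-only region, 2 and 0 pathway genes, and 27 c-Maf antibody and 21 isotype peaks near members. At a p-value of 1e-05 or smaller, 1 member (E2f7) and 0 pathway genes had a c-Maf-only region, against 0.658% of all protein-coding genes. At that setting 5 c-Maf antibody and 0 isotype peaks were left near members. At a q-value of 0.05 or smaller these numbers were 1 (E2f7), 0, 3 and 0, against 0.320% of all genes with a c-Maf-only region. Stricter settings keep fewer peaks by construction. With lists cut to the 15568 peaks of the shortest, 6 isotype peaks stood near members, as most peaks of isotype list 3 were dropped. With 50% reciprocal overlap 1 pathway gene, Fzr1, had a c-Maf-only region, against 1.88% of all genes. In a window of 5 kb, 1 member (E2f7) and 0 pathway genes had one, against 1.22% of all genes. That window left 9 c-Maf antibody and 7 isotype peaks near members. In a window of 100 kb, 43 c-Maf antibody and 34 isotype peaks stood near members. There 1 pathway gene, Skp2, had an isotype-only region, against 2.44% of all genes.

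With 1 library left out, a lone list is not filtered by a replicate. Members with a c-Maf-only region then ranged from 2 to 6 and with an isotype-only region from 0 to 6, pathway genes from 2 to 32 and from 0 to 38, and peaks near members from 10 to 27 for the c-Maf antibody and from 4 to 21 for the isotype. Without c-Maf antibody library 3, 5 members had one, and without library 4, 6 members, at backgrounds of 53.0% and 65.8% of all genes. Without isotype library 3, 3 members had an isotype-only region, and without isotype library 4, 6 members, at 46.7% and 84.7%. Pathway genes with a c-Maf-only region numbered 28 and 32 without c-Maf antibody library 3 or 4, and with an isotype-only region 19 and 38 without isotype library 3 or 4. The labels do not tie equal numbers to one animal. With the number as a replicate block, each c-Maf antibody list was set only against the isotype list of its own number. Then 2 members and 2 pathway genes had a c-Maf-only region and 0 an isotype-only region, so no count changed. Over all genes the shares were 3.18% and 1.46%. Counting error is wide for each peak, since 45 of the 48 near members had a pileup under 7. The effect of depth was not tested.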

Other observations

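Strong peaks that overlapped no peak of another list were also found near other genes of the pathway, chosen here after their values were seen. In the Fzr1 window, c-Maf antibody library 3 had a further peak inside Nfic, a transcription factor gene, with 10 tags, a fold enrichment of 5.89 and a −log10 q of 2.18. In the window of Ccnd3, which encodes cyclin D3, c-Maf antibody library 4 had a peak with 9 tags, a fold enrichment of 5.95 and a −log10 q of 1.77. Isotype library 4 had peaks of 8 tags with a q-value under 0.05 in the windows of Cdkn1b, for the kinase inhibitor p27, and of Rrm1, for a ribonucleotide reductase subunit, with fold enrichments of 5.69 and 6.00. These peaks lay 29.1 kb from Cdkn1b, inside Gpr19, and 31.4 kb from Rrm1, outside any gene. Close to the Rrm1 peak (chr7:102501186-102501269), c-Maf antibody library 4 had a peak with 5 tags (chr7:102501025-102501084).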
